A study of Mus musculus with 8 samples.

Results

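Chemokines, the small secreted proteins that guide leukocytes through tissue, and their receptors were read in whole pancreas of wild-type and Glis3KO2 mouse pups. Members were taken by name alone: every probe outside the array's controls whose gene name begins with Ccl, Cxcl, Ccr or Cxcr and a digit, or is Cx3cl1, Cx3cr1 or Xcl1. That gave 50 genes, 35 ligands and 15 receptors, of 27962 gene names on the array, read by 65 of its 41174 probes. The samples were 4 WT and 4 Glis3KO2 pancreata, all from C57BL/6 mice 1 week of age that had been kept with their own mothers. Glis3 is a Krüppel-like zinc finger transcription factor, and Glis3KO2 is the name the labels give to the mutant line, with no statement of which part of the gene is missing or in which cells. The labels do not say whether pups of a genotype came from separate litters, so the pups may not be independent of each other. A p-value sets the genotype difference against the spread within the genotypes among these 8 samples. Each sample was hybridised to 1 single-colour Agilent array, and the small number of arrays limits the precision of every value.

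Chemokines are grouped by the spacing of their first cysteines into the CC, CXC, C and CX3C classes, and they signal through receptors coupled to inhibitory G proteins. Homeostatic ligands such as Cxcl12 and Ccl21 place cells during development and in lymphoid tissue, while inflammatory ligands such as Ccl2 are induced by cytokines and draw in monocytes, T cells or granulocytes. Many ligand genes arose by tandem duplication and lie side by side on the chromosome, so neighbours can resemble each other closely in sequence. In the pancreas, ligands are made by islet, stromal, endothelial and immune cells, and most of the receptors are carried by leukocytes.

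Levels are given as the log2 processed signal minus the log2 75th percentile of that array, so that 0 is the level of a probe at the 75th percentile, and a level tells nothing about the level of another probe. A difference is the Glis3KO2 mean minus the WT mean on this log2 scale, with its standard error (SE) and a p-value adjusted over all 33239 tested probes. A probe was tested when it was well above background, the scanner software's own flag, on at least 4 of the 8 arrays. Where a gene had several probes, the one with the highest mean over the 8 arrays stands for it.

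All 65 member probes are 60 bases long, and the stretches that carry the results are printed 5′ to 3′ with positions as the array design gives them for mouse build mm7. The first set reads Ccl2 and Ccl7, the 2 genes whose genotype groups did not overlap. Ccl2 lies at chr11:82118723-82118782 on the plus strand, and the 2 Ccl7 probes lie at chr11:82128729-82128788 (the brighter) and chr11:82128577-82128636, with starts 152 bases apart. Bases 1 to 30 of each probe are given.
Ccl2: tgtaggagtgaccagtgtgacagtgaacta
Ccl7, brighter probe: ttctgagaactgttgatgaaatgtgttgat
Ccl7, second probe: gcatggaagtctgcgctgaagcccatcaga
No stretch of more than 9 bases in a probe of Ccl2 or Ccl7 is shared with a probe of another member. The second set shows how far probes of neighbouring genes resemble each other: the Ccl12 probe (chr11:82184783-82184842, bases 1 to 30 shown) and the Ccl8 probe (chr11:82198181-82198240, bases 16 to 45 shown) share a run of 13 bases, in capitals.
Ccl12: tCCTTGAACCTTCAtgtctaggctgagagt
Ccl8: ttctgcagCCTTGAACCTTCAcacctgagt
The third set reads Ccl5 (chr11:83595699-83595758, minus strand) and Ccr7 (chr11:99253592-99253652, minus strand), the 2 members with the widest spread between arrays of 1 genotype, again by bases 1 to 30.
Ccl5: tctcagctgctccgaggctctgcacagcaa
Ccr7: cttctagcttagagagatgtcccggagatt
Ccr4 is shown because its 2 probes, at chr9:114142769-114142828 and chr9:114142739-114142798 on the minus strand, overlap by 30 bases, in capitals, and were read differently by the arrays.
Ccr4, bases shared by both probes: CTTGAGTGGATCTCTAGTTTGGTTGAACTA

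The arrays had 31353 to 35631 probes well above background each, their 75th percentiles before scaling ran from 460.4 to 694.1, and no spot was saturated. The 1 Glis3 probe was detected on 3 of the WT arrays and on none with the knockout, with WT levels of -6.06 to -5.35 and Glis3KO2 levels of -6.43 to -5.93. All 10 acinar and all 14 islet endocrine markers looked up were detected. Each genotype had its own slide, so an effect of the slide and one of genotype cannot be told apart below. Among the array's controls, 9 of 10 spike-in probes, which read added RNA, were lower with the knockout. The median of their log2 differences was -0.28, against -0.0088 for all tested probes. The part of the slide in the differences of the members was not tested. Xist, a transcript of females, was high on WT replicate 4 and on Glis3KO2 replicates 1, 3 and 4. In a principal component analysis of all tested probes Glis3KO2 replicates 3 and 4 had the highest scores on component 1, and values without the pair are given beside the results it moves most. WT replicate 1 stood apart from the other 7 arrays in pan-leukocyte, lymphocyte and dendritic cell markers. It was not the highest array for macrophage, neutrophil or mast cell and eosinophil markers. Values without WT replicate 1 are given beside the results it moves most. On that array the mean level of 11 pan-leukocyte genes, each relative to its own mean over the arrays, was 1.03, against -0.50 to 0.10 on the other arrays.

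Of the 50 genes, 41 were detected by the rule of 4 arrays, which is 82.0%, against 81.2% of all gene names. Of these, 39 were well above background on all 8 arrays. The other 2 were Ccl1, on 3 WT arrays and 1 Glis3KO2 array, and Ccl20, on 4 WT and 3 Glis3KO2 arrays. Detected were 28 of 35 ligands and 13 of 15 receptors. The 9 remaining genes were not tested. Ccr1, a receptor of myeloid cells, and Cxcl2 and Cxcl5, which attract neutrophils, were well above background on 0 of 8 arrays. The interferon-induced ligand Cxcl9 was detected on 2 WT arrays and 1 Glis3KO2 array, and Cxcl11 on 1 WT array. Ccl22, a dendritic cell product, was seen on 2 WT arrays. Ccr8, a chemokine receptor of some T cells, was seen on 1 WT array, and Cxcl15, known from lung epithelium, on 1 WT and 2 Glis3KO2 arrays. Xcl1, a product of natural killer and activated T cells, was detected on 3 arrays, all WT. Its levels were -4.66, -5.39, -6.34 and -5.38 in WT and -5.64, -6.52, -7.20 and -7.35 in Glis3KO2, and the ranges of the genotypes overlapped.

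Between the genotypes, 1 of the 41 tested genes fell past an adjusted p of 0.05, the monocyte attractant Ccl2, and none rose. That is 2.44% of the members, against 0.300% of all 22700 tested genes read by their brightest probe in either direction, 0.211% lower and 0.0881% higher. Counted over probes, 0.256% passed. Of the members, 2 (4.88%), Ccl2 and Ccl7, had groups that did not overlap, both lower in Glis3KO2, against 5.31% of all genes in either direction and 3.31% in that direction. At an unadjusted p under 0.05 stood 4 members (9.76%), Ccl2, Ccl7, Ccl11 and Ccr9, all with differences below 0, against 9.13% of all genes. Apart from Ccl2, the counts of members were close to those of the whole array.

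The direction of the differences was uneven. Differences were below 0 for 28 of 41 members (68.3%), against 50.9% of all genes, and the median difference was -0.10, against -0.00380 over all genes. Among the 28 ligands, 23 were below 0 with a median of -0.16 and a range of -0.83 to 0.66. Among the 13 receptors, 5 were below 0 with a median of 0.01 and a range of -0.68 to 1.17. Without Glis3KO2 replicates 3 and 4, 14 of the 28 ligands were below 0 and their median was -0.02, and without WT replicate 1 it was 19 of 28 with a median of -0.10. The count for receptors moved with the setting too: it was 8 of 13 with normexp background correction (median -0.02) and without WT replicate 2 (median -0.06), and 3 of 13 without WT replicate 1 (median 0.14). The median over all 41 members was 0.03 without Glis3KO2 replicates 3 and 4, and -0.02 without WT replicate 1. Members also varied more between arrays than other genes did. The median SD of the members over the WT arrays was 0.35 against 0.16 for all genes, and over the Glis3KO2 arrays 0.29 against 0.22. Without WT replicate 1 the WT medians were 0.26 and 0.16. The members and all genes were not matched for signal level. With 1 array per mouse, the spread of the mice and that of the measurement cannot be told apart.

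**Figure D1:**
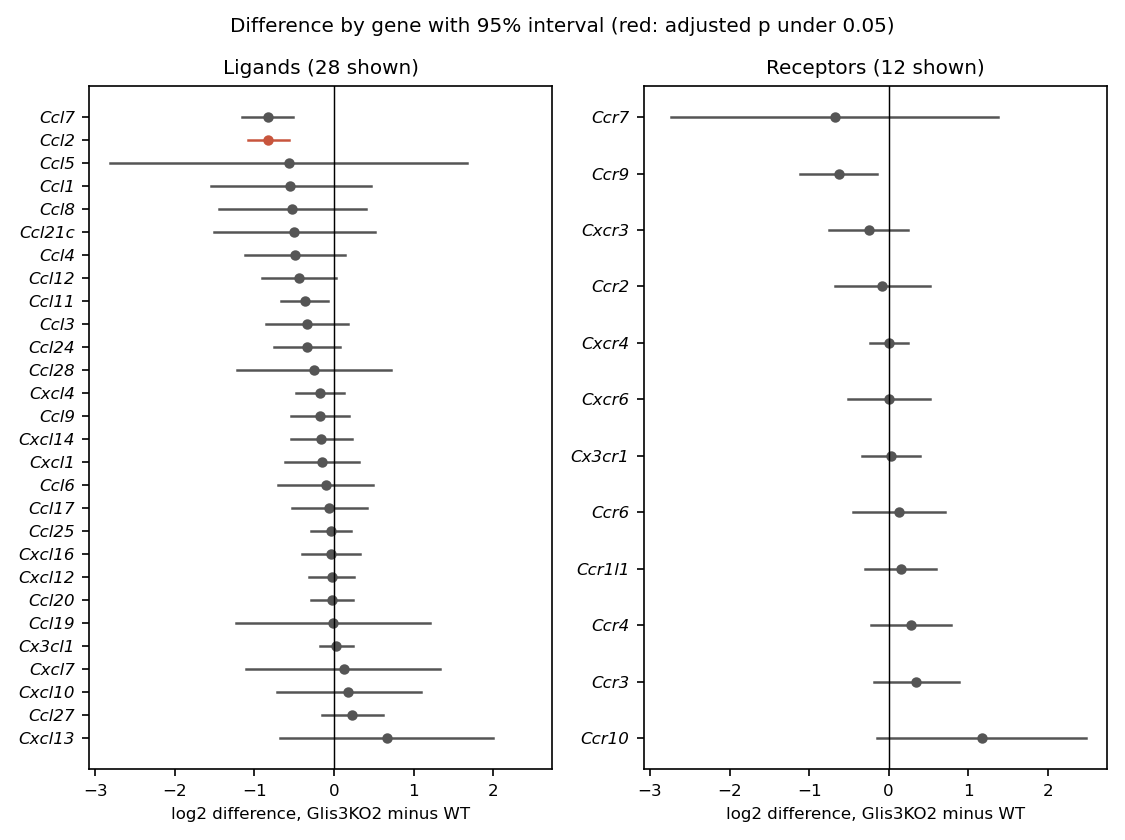
Log2 difference (Glis3KO2 minus WT, x axis) of the 28 tested ligands and 12 of the 13 tested receptors, by gene (y axis), from the brightest probe of each. Points are limma estimates from 4 arrays per genotype and lines are 95% intervals. Ccl2, in red, was the 1 gene with an adjusted p under 0.05, and Ccl5 and Ccr7 have the widest intervals.

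Ccl2 is the principal ligand of Ccr2, the receptor through which monocytes leave the bone marrow and enter tissue. The Ccl2 probe has 10 spots on each array, and its level is the mean of the spots kept. Its levels were -0.06, -0.06, 0.16 and -0.08 in WT and -0.70, -1.02, -0.87 and -0.75 in Glis3KO2. Every Glis3KO2 array was below every WT array. The WT mean was -0.01 ± 0.11 (SD, n = 4) and the Glis3KO2 mean -0.83 ± 0.14 (SD, n = 4), a 1.77-fold fall (difference -0.83, SE 0.11, 95% interval -1.08 to -0.57, adjusted p = 0.0253). In whole tissue, fewer cells that make a transcript and less transcript per cell cannot be told apart.

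The size of the Ccl2 difference stayed between -0.87 and -0.72 in 20 other settings, but the call did not. The adjusted p ranged from 0.00365 to 0.202, and 9 of the 20 settings kept it under 0.05. Leaving out any 1 of the 4 WT arrays gave 0.0890, 0.0723, 0.116 and 0.0957 in replicate order, and leaving out Glis3KO2 replicate 2, 3 or 4 gave 0.0666, 0.106 and 0.0741, with differences between -0.85 and -0.76 in these fits. With Xist level as a covariate the difference was -0.86 and the adjusted p 0.137. Without Glis3KO2 replicates 3 and 4 it was -0.85 with an adjusted p of 0.202.

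Ccl7, a second Ccr2 ligand and a neighbour of Ccl2 on chromosome 11, had a difference of the same size and missed the threshold. Each Ccl7 probe has 1 spot per array, against 10 for Ccl2, so their SDs and SEs are not alike. The part of spot number in the 2 calls was not tested. For Ccl7 the brighter probe is given first. Its levels were -2.46, -2.21, -2.11 and -1.89 in WT and -3.06, -3.09, -3.08 and -2.76 in Glis3KO2. The highest Glis3KO2 array lay below the lowest WT array. The means were -2.17 ± 0.24 and -3.00 ± 0.16 (SD, n = 4 each), with a difference of -0.83 (SE 0.14, 95% interval -1.16 to -0.51, adjusted p = 0.0782). The second probe gave -2.68, -2.41, -2.55 and -2.23 in WT and -3.04, -3.32, -3.28 and -3.25 in Glis3KO2, again with no overlap (difference -0.76, SE 0.12, adjusted p = 0.0689). With the mean of both probes the adjusted p was 0.0472, and with the trend and robust settings of limma 0.0335. With normexp background correction the difference of the brighter probe was -0.54, with an adjusted p of 0.0537.

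The third Ccr2 ligand, Ccl12, is the mouse gene next to Ccl11 and Ccl8. Its levels were -2.15, -2.24, -2.07 and -1.45 in WT and -2.24, -2.75, -2.54 and -2.11 in Glis3KO2. The ranges overlapped, with WT replicate 4 above the rest (difference -0.44, SE 0.20, 95% interval -0.90 to 0.03, adjusted p = 0.581). Ccr2 itself had levels of -2.07, -3.03, -2.65 and -1.83 in WT and -2.28, -2.46, -2.26 and -2.90 in Glis3KO2. The Glis3KO2 range lay inside the WT range (difference -0.08, SE 0.27, 95% interval -0.68 to 0.52, adjusted p = 0.963). A second Ccr2 probe was well above background on 3 arrays and was not tested.

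Ccl2, Ccl7, Ccl11, Ccl12, Ccl8 and Ccl1 lie within 140 kb of chromosome 11 (positions 82118723 to 82258468, mm7). All 6 genes had differences below 0, against 50.9% of all tested genes, with a median of -0.54. The grouping was made after the values were seen. The median was -0.34 with normexp background correction, -0.45 with quantile normalization and -0.51 with scaling to the median, with 6 of 6 below 0 in each, and 5 of 6 were below 0 (median -0.41) without Glis3KO2 replicates 3 and 4. Ccl11, also called eotaxin, had levels of 0.16, -0.09, 0.12 and 0.10 in WT and -0.44, 0.00, -0.26 and -0.50 in Glis3KO2. Only Glis3KO2 replicate 2 reached the WT range (difference -0.37, SE 0.13, adjusted p = 0.453). For Ccl8, a further monocyte attractant, WT replicate 4 was at -2.56 and the other 7 arrays lay between -4.90 and -3.89 (difference -0.53, SE 0.41, adjusted p = 0.760). Without WT replicate 4 the Ccl8 difference was -0.10, and without Glis3KO2 replicates 3 and 4 it was -0.17. Ccl1, near background, ranged from -6.07 to -4.65 in WT and from -7.16 to -5.35 in Glis3KO2 (difference -0.55, SE 0.44, adjusted p = 0.769). It was -0.20 with normexp background correction, and 0.15 without Glis3KO2 replicates 3 and 4.

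**Figure D2:**
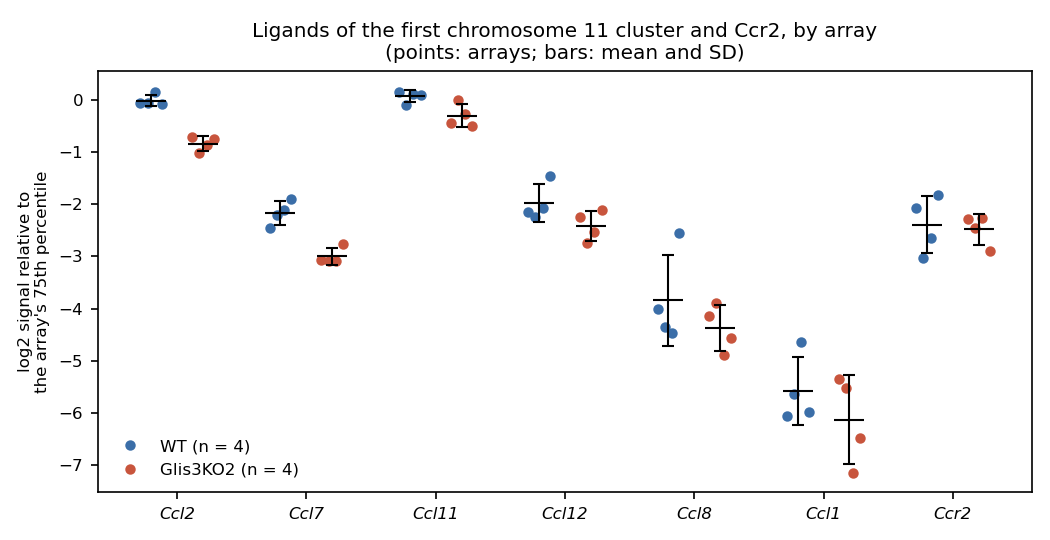
Log2 signal scaled to each array's 75th percentile (y axis) of the 6 ligands of the first chromosome 11 cluster and of Ccr2 (x axis), 1 point per array, with bars at the mean and SD of 4 WT (blue) and 4 Glis3KO2 (red) arrays. The groups are apart for Ccl2 and Ccl7 and overlap for the other 5 genes, and levels are not comparable between genes.

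Markers of cells that make or answer these ligands were read beside them. Over all tested genes, 0.300% passed the threshold of the limma fit, 9.13% had an unadjusted p under 0.05 and 50.9% were below 0. None of 17 macrophage and monocyte markers passed the threshold of the limma fit, or an unadjusted p of 0.05. Of these, 13 were below 0 and their median difference was -0.12. The mean level of that list was 0.24, -0.25, -0.17 and 0.35 on the WT arrays and 0.07, 0.10, -0.07 and -0.27 on the Glis3KO2 arrays. Of 14 endothelial markers none passed, 3 had an unadjusted p under 0.05, 13 were below 0 and the median was -0.20. Of 11 mesenchymal markers none passed, 1 had an unadjusted p under 0.05, 1 was below 0 and the median was 0.14. Of 14 islet endocrine markers, 5 fell and 1 rose past the threshold, with a median of -0.72. The part that any of these cell types has in the Ccl2 and Ccl7 values was not tested.

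A second group on chromosome 11 (positions 83595699 to 83734514, mm7) holds Ccl5, Ccl9, Ccl6, Ccl3 and Ccl4. All 5 differences were below 0, against 50.9% of all tested genes, with a median of -0.34, and none passed the threshold. This grouping too was made after the values were seen. Without WT replicate 1, 4 of 5 were below 0 and the median was -0.15, and without Glis3KO2 replicates 3 and 4 it was 4 of 5 and -0.05. It was also 4 of 5 without WT replicate 4 (median -0.32) and without Glis3KO2 replicate 4 (median -0.22). The median was -0.17 with normexp background correction. Ccl3 and Ccl4 are inflammatory ligands that macrophages make. Ccl3 ranged from -4.48 to -4.00 in WT and from -4.88 to -3.85 in Glis3KO2 (difference -0.34, SE 0.22, adjusted p = 0.710). Ccl4 ranged from -4.04 to -3.10 in WT and from -4.58 to -3.54 in Glis3KO2 (difference -0.49, SE 0.28, adjusted p = 0.666). In both genes Glis3KO2 replicate 2 was among the 2 highest arrays and replicates 3 and 4 were the lowest. Without those 2 arrays the differences were -0.05 for Ccl3 and -0.04 for Ccl4, and without WT replicate 1 that of Ccl4 was -0.33. Ccl6 and Ccl9, constitutive products of mouse macrophages, had differences of -0.10 (SE 0.26) and -0.17 (SE 0.16), and both had overlapping groups. Ccr1, a receptor of Ccl3 and Ccl5, was not detected. Groups of members on other chromosomes were not uniformly lower. In the first on chromosome 5, 2 of 3 tested genes were below 0 (median -0.15). In the second on chromosome 5 it was 0 of 1 (0.18), and among receptors on chromosome 9 it was 2 of 5 (median 0.01).

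Ccl5, a ligand made by activated T and natural killer cells, was spread more widely than any other tested ligand. Its levels were 3.64, -1.36, -0.88 and 0.21 in WT and -0.50, -1.12, 0.06 and 0.90 in Glis3KO2. WT replicate 1 was 2.74 above the next array, and its second probe gave 1.74 there against -4.57 to -1.46 on the others. The difference was -0.57 (SE 0.99, adjusted p = 0.915) with that array and 0.51 (SE 0.51, adjusted p = 0.856) without it, so its direction rested on 1 mouse. Without Glis3KO2 replicates 3 and 4 it was -1.21.

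The same mouse was highest for 16 of the 41 tested members (39.0%), against 7.30% of all tested genes. On that array 3 members were at least 1 log2 unit above every other array, which held for 0.573% of all genes. Besides Ccl5 these were Ccr7, which brings T and dendritic cells into lymph nodes, and Ccl21c, a homeostatic ligand of Ccr7. Ccr7 was at -0.65 on WT replicate 1, at -4.94, -5.34 and -4.24 on the other WT arrays and at -4.80, -4.97, -4.40 and -3.73 in Glis3KO2. Its difference was -0.68 (SE 0.91, adjusted p = 0.881) with WT replicate 1 and 0.36 (SE 0.35, adjusted p = 0.848) without it. Ccl21c was at 2.76, 0.83, 0.48 and 1.49 in WT and at 0.73, 1.25, 0.42 and 1.14 in Glis3KO2. Its difference was -0.50 (SE 0.45, adjusted p = 0.791), and -0.05 without WT replicate 1. Mouse Ccl21 genes are close copies of each other, so the probe may also read the others.

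Ccl19, the other Ccr7 ligand, was at 2.86, 1.09, 0.88 and 1.19 in WT and at 2.55, 1.18, 0.36 and 1.88 in Glis3KO2. WT replicate 1 and Glis3KO2 replicate 1 were its 2 highest arrays, and the genotype means, 1.50 and 1.49, differed by -0.01 (SE 0.54, adjusted p = 0.998). Without WT replicate 1 the difference was 0.44. A second Ccl19 probe, which starts 80 bases away, was at 3.13, 0.11, -0.05 and 0.68 in WT and at 0.76, 0.32, 0.00 and 0.95 in Glis3KO2. There WT replicate 1 alone was high and Glis3KO2 replicate 1 was not (difference -0.46, SE 0.63, adjusted p = 0.886). Cxcl13, which guides B cells to follicles, was at 0.72, -1.95, -1.60 and -0.25 in WT and at 0.46, 0.39, -0.16 and -1.13 in Glis3KO2. Its difference was 0.66 (SE 0.59, adjusted p = 0.794), and 1.16 (SE 0.49, adjusted p = 0.591) without WT replicate 1. Its receptor Cxcr5, named Blr1 on the array, was at -1.37 on WT replicate 1 and between -5.13 and -3.29 on the other 7 arrays.

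**Figure D3:**
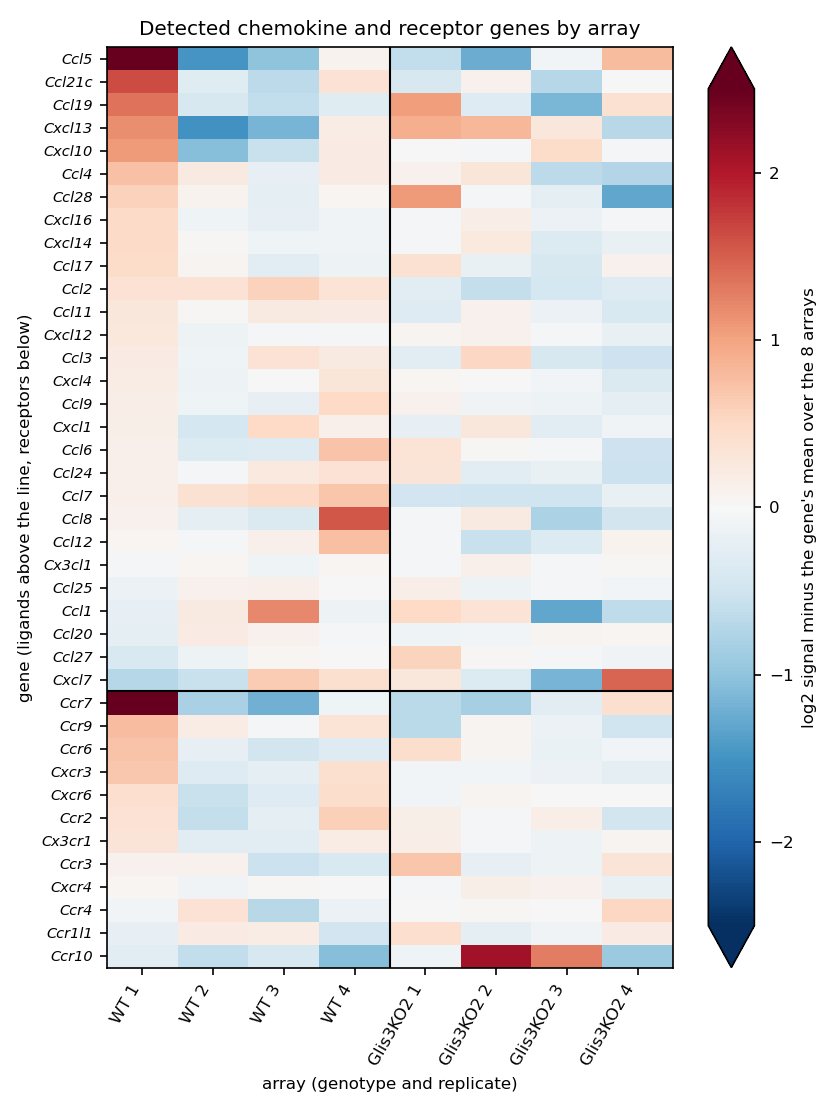
Log2 signal of each detected member but 1 (rows, ligands above the line and receptors below) minus the gene's mean over the 8 arrays, by array (columns, WT left of the line). WT replicate 1 is the highest array for 16 genes, and Ccl5 and Ccr7 are beyond the end of the colour scale there.

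Lymphocyte markers were also high on WT replicate 1. The mean level of 19 tested T and NK cell markers was 1.16 on WT replicate 1 and between -0.41 and 0.21 on the other 7 arrays, and 12 of the 19 were highest on that array. For 11 B and plasma cell markers it was 0.75 against -0.40 to 0.18, with 5 highest there. For 17 macrophage and monocyte markers it was 0.24, which was below the 0.35 of WT replicate 4. Of 20 T and NK cell markers on the array 1, Ncr1, was too dim to be tested. Cd3d, a T cell receptor subunit, was well above background on all 8 arrays, at 0.47 on WT replicate 1 and between -3.99 and -2.38 on the others. The part of lymphoid tissue in these values was not tested.

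**Figure D4:**
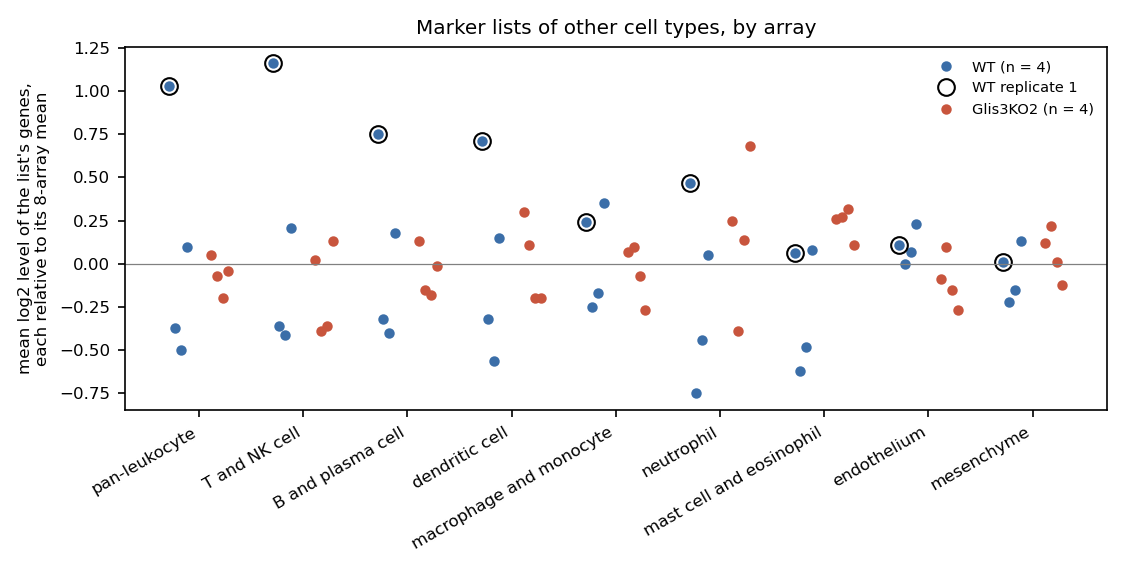
Mean log2 level of the tested genes of 9 marker lists (x axis), each gene relative to its mean over the 8 arrays (y axis), with 1 point per array. WT replicate 1, ringed, is the highest array in the pan-leukocyte, T and NK cell, B and plasma cell and dendritic cell lists, and is not the highest in the other 5.

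The interferon-induced set around Cxcr3, a receptor of effector T cells, was represented by Cxcl10, since Cxcl9 and Cxcl11 were mostly at background. Cxcl10 was at -1.44, -3.57, -3.07 and -2.30 in WT and at -2.52, -2.55, -2.05 and -2.54 in Glis3KO2. The WT arrays spanned the whole Glis3KO2 range (difference 0.18, SE 0.40, adjusted p = 0.934). Without WT replicate 1 the difference was 0.57 (SE 0.28, adjusted p = 0.644). Cxcr3 was at -1.50, -2.50, -2.41 and -1.77 in WT and between -2.41 and -2.24 in Glis3KO2 (difference -0.25, SE 0.22, adjusted p = 0.785, and -0.07 without WT replicate 1). Cxcl16, a membrane-bound ligand of macrophages, and its receptor Cxcr6 had differences of -0.04 (SE 0.16) and 0.01 (SE 0.23). In Cxcr3 and Cxcr6 alike, WT replicates 1 and 4 lay above all Glis3KO2 arrays and WT replicates 2 and 3 at or below the lowest of them.

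Pairs that act on regulatory, memory or mucosal T cells showed small differences. Ccl17, a dendritic cell ligand of Ccr4, ranged from -4.14 to -3.39 in WT and from -4.26 to -3.46 in Glis3KO2 (difference -0.06, SE 0.21, adjusted p = 0.966). The brighter Ccr4 probe was at -1.39, -0.96, -2.02 and -1.48 in WT and at -1.31, -1.29, -1.34 and -0.81 in Glis3KO2 (difference 0.28, SE 0.22, adjusted p = 0.764). The second Ccr4 probe, with which it shares the 30 bases printed above, was well above background on 0 of 8 arrays, so what the brighter one reads is uncertain. Ccl20, an epithelial ligand, was near background with a difference of -0.02 (SE 0.12), and its receptor Ccr6 had a difference of 0.13 (SE 0.26, adjusted p = 0.926), and 0.39 without WT replicate 1.

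The homeostatic pair Cxcl12 and Cxcr4, which retains progenitor cells in their niches, was among the most even of the family. Cxcl12 was at 2.62, 2.22, 2.29 and 2.32 in WT and at 2.42, 2.46, 2.29 and 2.16 in Glis3KO2. The groups overlapped closely, and the 95% interval of the difference was -0.31 to 0.25 around -0.03. A second Cxcl12 probe, whose start lies 6.75 kb away, gave 0.24 (SE 0.15, adjusted p = 0.700). Cxcr4 was at -2.85, -2.99, -2.86 and -2.90 in WT and at -2.95, -2.76, -2.79 and -3.09 in Glis3KO2, a difference of 0.00 with an interval of -0.24 to 0.24. Its second probe gave -0.20 (SE 0.14, adjusted p = 0.726). Ackr3, the scavenging Cxcl12 receptor once called Cxcr7 and named Cmkor1 on the array, was at 1.59, 1.20, 1.26 and 1.58 in WT and at 0.92, 1.32, 1.21 and 0.95 in Glis3KO2. The groups overlapped (difference -0.31, SE 0.14, adjusted p = 0.576).

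Cx3cl1, a membrane-anchored ligand of endothelial and epithelial cells, was even too. Its levels lay between -0.11 and 0.03 in WT and between -0.06 and 0.11 in Glis3KO2, with a 95% interval of -0.17 to 0.24 around a difference of 0.03. A second probe, which starts 9.44 kb away, was detected on 3 arrays, all WT, and was not tested. Its levels of -6.95 to -3.72 in WT overlapped those of -7.58 to -5.83 in Glis3KO2. Cx3cr1, the fractalkine receptor of resident macrophages, was at -1.75, -2.35, -2.34 and -1.89 in WT and between -2.20 and -1.91 in Glis3KO2 (difference 0.03, SE 0.16, adjusted p = 0.979). For Cxcl12, Cxcr4 and Cx3cl1 the intervals given are for the brighter probe and come from the spread within the genotypes. They do not separate genotype from slide, and they do not show the genotypes to be equal.

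None of the mucosal ligands and receptors passed the threshold. Ccl25, which draws lymphocytes to thymus and gut, had a difference of -0.04 (SE 0.11, 95% interval -0.29 to 0.21), and its 2 dimmer probes gave -0.01 and -0.38. The last of these was lower on all Glis3KO2 arrays than on all WT arrays, with an adjusted p of 0.537, and the probes of this gene start up to 26.6 kb apart. The Ccl25 receptor Ccr9 was at -2.26, -2.84, -3.08 and -2.70 in WT and at -3.71, -2.96, -3.17 and -3.54 in Glis3KO2. Glis3KO2 replicate 2 reached the WT range (difference -0.62, SE 0.22, adjusted p = 0.440, and -0.47 without WT replicate 1). Ccl27, known from skin, was at -0.69, -0.45, -0.26 and -0.33 in WT and at 0.24, -0.29, -0.36 and -0.40 in Glis3KO2 (difference 0.23, SE 0.17, adjusted p = 0.738). The Ccl27 difference was 0.08 without Glis3KO2 replicate 1. Ccl28, an epithelial ligand, ranged from -4.35 to -3.55 in WT and from -5.43 to -3.06 in Glis3KO2 (difference -0.25, SE 0.43, and 0.39 without Glis3KO2 replicates 3 and 4).

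Ccr10, the receptor of Ccl27 and Ccl28, was the 1 tested member with a difference of at least 1 log2 unit. It was at -5.15, -5.49, -5.28 and -5.95 in WT and at -4.99, -2.78, -3.60 and -5.82 in Glis3KO2. The WT levels and those of Glis3KO2 replicates 1 and 4 were near background. The lowest level well above background was between -6.32 and -5.29, depending on the array. Its 1 probe has no RefSeq accession. Glis3KO2 replicates 2 and 3 were high, replicate 1 was just above the WT range and replicate 4 lay inside it. The difference was 1.17 (SE 0.58, 95% interval -0.15 to 2.48, adjusted p = 0.610), so this 2.25-fold difference did not pass the test. It was 0.35 with normexp background correction and 0.66 without Glis3KO2 replicate 2.

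Eosinophils are drawn by Ccl11 and Ccl24 through Ccr3. Ccl24 was at 0.24, 0.05, 0.34 and 0.46 in WT and at 0.42, -0.15, -0.08 and -0.44 in Glis3KO2, with Glis3KO2 replicate 1 inside the WT range (difference -0.34, SE 0.18, adjusted p = 0.639). Its second probe gave -0.28 (SE 0.17). Ccr3 went the other way. Its brighter probe was at 0.05, 0.06, -0.58 and -0.43 in WT and at 0.65, -0.26, -0.17 and 0.28 in Glis3KO2 (difference 0.35, SE 0.23, adjusted p = 0.711). Its second probe was at -3.32, -3.29, -3.70 and -3.43 in WT and at -2.45, -2.87, -2.81 and -2.87 in Glis3KO2, with every Glis3KO2 array above every WT array (difference 0.68, SE 0.14, adjusted p = 0.135). Of all tested probes, 5.20% had groups apart in either direction. Over the whole array, 9.13% of tested genes had an unadjusted p under 0.05 and 50.9% were below 0. Of 9 tested mast cell and eosinophil markers none passed the threshold and 3 had an unadjusted p under 0.05. Among these 9 markers 0 were below 0, and the median difference was 0.50. Their mean level was 0.06, -0.62, -0.48 and 0.08 on the WT arrays and 0.26, 0.27, 0.32 and 0.11 on the Glis3KO2 arrays, and their part in the Ccr3 values was not tested.

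Ligands of neutrophils and platelets were few. Of the Cxcr2 ligands, Cxcl2 and Cxcl5 were not detected, and Cxcl1 ranged from -5.06 to -4.12 in WT and from -4.90 to -4.34 in Glis3KO2 (difference -0.15, SE 0.20, adjusted p = 0.881). Cxcr2, named Il8rb on the array, had a difference of -0.30 (SE 0.30, adjusted p = 0.828, and -0.07 without WT replicate 1), and Cxcr1, named Il8ra, was on 0 arrays. Of 11 tested neutrophil markers none passed the threshold or an unadjusted p of 0.05. With a median of 0.33, 0 of them were below 0, against 50.9% of all tested genes. Cxcl4, the platelet factor now called Pf4, was at 3.79, 3.48, 3.63 and 3.91 in WT and at 3.66, 3.63, 3.55 and 3.26 in Glis3KO2 (difference -0.18, SE 0.13, adjusted p = 0.752). Cxcl7, the platelet protein now called Ppbp, ranged from -4.39 to -3.03 in WT and from -4.83 to -2.21 in Glis3KO2 (difference 0.12, SE 0.54, adjusted p = 0.975). Cxcl14, an epithelial and stromal chemokine, had a difference of -0.16 (SE 0.17, and -0.02 without WT replicate 1), and Ccr1l1, a relative of Ccr1, one of 0.15 (SE 0.20). None of these 5 detected members separated the genotypes.

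Other genes of the chemokine system were read from 4 lists, and none of their tested genes passed the threshold of the limma fit. Over the whole array, 0.300% of tested genes passed it, 9.13% had an unadjusted p under 0.05 and 50.9% were below 0. At an unadjusted p under 0.05 stood 0 of the family members under other names, 0 of the atypical receptors, 1 of the receptor signalling genes and 2 of the inducers and processing enzymes. Family members under other names, 3 of which also belong to the family by the naming rule, had 5 of 7 genes tested and 3 of these below 0. Of 7 atypical, decoy and related receptors, some of which take up chemokines and some of which bind chemerin, 7 were tested, 5 were below 0 and the median difference was -0.15. After Ackr3, described above, the scavenger Ackr2 (Ccbp2 on the array) had -0.35 (SE 0.24, adjusted p = 0.725), and -0.17 without WT replicate 1. Of 28 receptor signalling genes 17 were below 0 with a median of -0.04. Among these Rgs1, a regulator that ends G protein signalling in lymphocytes, had -0.67 (SE 0.77), and was at -2.44 on WT replicate 1 against -6.58 to -5.01 on the other arrays. Without that array its difference was 0.19.

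Of 35 genes for inducers and processing enzymes 32 were tested and 21 were below 0, against 50.9% of all tested genes. The median difference of the list was -0.09. The 4 with the largest differences were all below 0. Il1r1, the receptor of interleukin 1, was at 1.15, 1.13, 1.43 and 1.43 in WT and at 0.93, 1.07, 0.67 and 0.47 in Glis3KO2, with no overlap (difference -0.50, SE 0.15, adjusted p = 0.370). Il1b, an inducer of Ccl2 in many cells, was at -4.38, -4.58, -4.60 and -3.96 in WT and at -4.73, -4.67, -4.64 and -5.09 in Glis3KO2, with ranges that came close and did not overlap (difference -0.40, SE 0.17, adjusted p = 0.535). Mmp9, a protease that trims chemokines, had -0.48 (SE 0.26, and -0.24 without WT replicate 1), and Ltb, a lymphotoxin of lymphoid tissue, -0.47 (SE 0.65) with 2.90 on WT replicate 1 against -0.60 to 0.59 elsewhere. Without that array the Ltb difference was 0.28. Of all tested genes, 3.31% had groups apart in the lower direction, against 2 of these 32.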

How the data were processed

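Total RNA of 8 pancreata was Cy3-labelled from 500 ng each, per the labels' protocols. The authors' deposited values are linear intensity per spot, read with Agilent Feature Extraction 9.5.3.1 per the file headers (9.5 per the submitters' processing notes), which also flagged spots and gave probe positions in build mm7. Groups came from the sample titles.

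From these, the processed signal was divided by the 75th percentile of its array and taken to log2. Non-uniform and population outlier spots (56 to 130 per array) were dropped, and spots of a probe were averaged. The fit was limma 3.58.1 (lmFit, eBayes, two-sided) in R 4.3.3 on genotype alone, with Benjamini-Hochberg adjustment over 33239 probes well above background on at least 4 of 8 arrays, at 0.05. Intervals of 95% are limma's, unadjusted. The script was tested on simulated data. Of 65 member probes, 59 had a RefSeq accession and 58 matched RefSeq's gene table, which gave 3 genes a newer symbol; names follow the array. The genes named included all members past the threshold, the 8 with the largest differences and the tested members of fixed ligand and receptor sets. Other members, among them Ccl6, Ccl8, Ccl9, Cxcl14 and Ccr1l1, were named outside these rules. Of the receptors, 1 is counted among the members and its own values are not reported here. The members, lists and alternatives were chosen with earlier results of these data known. No annotation of mm7 was used here, so probes were not placed in exons or untranslated regions. Alternatives were other background corrections, scalings, filters, variance settings and probe choices, array weights, the deposited series table, a replicate block, Xist as a covariate and leaving arrays out. Figures were drawn with matplotlib 3.10.9.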

Additional observations from a re-analysis of the deposited data

Results flagged for a closer look

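In each genotype the highest and the lowest array of each of the 41 tested members was compared with its nearest neighbour by Dixon's 95% criterion for the gap over the range. Of 82 groups 6 met it, and chance alone gives about 1 in 20, or 4.10 here. Ccl2 was high on WT replicate 3 at 0.16, so that the difference without that array was -0.77. Ccl7 was high on Glis3KO2 replicate 4 at -2.76, still below every WT array. Ccl19 was high on WT replicate 1 at 2.86, the array that stood apart in lymphocyte markers. Cxcl10 was high on Glis3KO2 replicate 3 at -2.05, with the other 3 arrays of that genotype between -2.55 and -2.52. Ccl27 was high on Glis3KO2 replicate 1 at 0.24, and Ccr4 was high on Glis3KO2 replicate 4 at -0.81. The wide spread of Ccl5 and Ccr7 in WT did not meet the criterion, since the other WT arrays were spread as well.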

How the results depend on the processing

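The count of members past the threshold, 1, was 0 with no filter on dim probes, with the replicate block, with Xist level as a covariate and without Glis3KO2 replicates 3 and 4 together. It was 2 with the trend and robust settings and with the probes of each gene averaged, and 0 to 1 when single arrays were left out. The count over all probes, 85, was 51, 15, 27 and 11 in the first 4 of these settings, 142 with trend and robust settings, and 35 to 96 without single arrays. With the replicate block, Ccl2 had an adjusted p of 0.200. Deviations of same-numbered arrays correlated at 0.13, 0.09, 0.24 and -0.04, so the numbers were not taken to pair the mice. With no filter on dim probes the adjusted p of Ccl2 was 0.0511. Detection of 41 members became 47 with 1 array required and 39 with all 8. Of 818 single-gene values under alternatives, 804 kept their direction or their uncalled status, 11 lost a call (all Ccl2), 2 gained one and 1 moved (all Ccl7), and none of the called values reversed, while 67 values of uncalled genes changed sign. The cause of these changes was not tested. The deposited series table gave the main values. With normexp the difference of Ccr10 went from 1.17 to 0.35 and that of Ccl1 from -0.55 to -0.20.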

Other observations

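Members were shared unevenly among the mice as their highest array. WT replicate 4 was highest for 9 of the 41 tested members (22.0%), against 12.3% of all tested genes, second to WT replicate 1. Glis3KO2 replicate 3 was highest for 0 members, against 9.49% of all genes. Ccl8 was the 1 member at least 1 log2 unit above every other array on WT replicate 4, which held for 0.0352% of all genes. The natural killer and T cell protease gene Gzma was also highest there, at -3.42 against -6.85 to -4.75 on the other 7 arrays, although it was not high on WT replicate 1.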
